A study of Mus musculus with 8 samples.

Results

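The genes described here were the nuclear genes of oxidative phosphorylation, taken as the protein-coding genes on chromosomes 1 to 19, X and Y whose symbols start with Nduf (complex I), Sdh (complex II), Uqcr (complex III), Cox4 to Cox8 (complex IV) or Atp5 (complex V). The rule found 98 gene models, with 97 symbols, among 21938 protein-coding genes. The symbol *Atp5o* occurred on 2 models, of which ENSMUSG00000116933.1 is a long read-through model. The symbols also took in 12 assembly factors, 8 of complex I (*Ndufaf*) and 4 of complex II (*Sdhaf*). Chromatin accessibility was measured by ATAC-seq, in which a transposase inserts sequencing adapters into open DNA, in mouse pachytene spermatocytes, the germ cells in mid prophase of the first meiotic division. The *Arid1a* cKO group came from males of genotype Arid1a fl/fl with Stra8-Cre Tg/0. The *Arid1a* WT group came from Arid1a fl/fl or Arid1a fl/+ males without the Cre, with 4 libraries per genotype. The paper gives CD1 as the background of the floxed mice. Stra8-Cre acts from the spermatogonial stage, deletion was incomplete so that some cells of the cKO kept ARID1A, and cells were sedimented from pooled testes of adult males and cryopreserved. *Arid1a* encodes the DNA-binding subunit of the BAF chromatin remodeler.

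In the inner mitochondrial membrane, complexes I and II pass electrons from NADH and succinate to ubiquinone, complex III passes them on to cytochrome c, and complex IV reduces oxygen, while the ATP synthase, complex V, uses the proton gradient built by complexes I, III and IV. Nearly all subunits are encoded by nuclear genes that are active in most tissues, and the few encoded by mitochondrial DNA were not part of the set. Complex IV has tissue-specific subunit isoforms, and the germ line uses testis forms of subunits 6b, 7b and 8.

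Each genotype was represented by 1 list of peaks, the accessible regions that the authors called per library and intersected across the 4 replicates, so the values lack any estimate of the spread between replicates and no test between genotypes was possible. The WT list held 19309 peaks and the cKO list 30244. A peak was scored as a promoter peak when it shared at least 1 bp with the window from 1000 bp upstream to 100 bp downstream of an annotated start of the gene. Fold enrichment is the height of the fragment pileup at the summit of the peak over the background of the library that supplied it, with 1 added to both. Per base, that background came to 4.33 fragments for WT and 5.11 for cKO, the lowest summit pileups were 13 and 14 fragments, and how deeply the remaining 3 libraries of a genotype were sequenced is unknown. The promoter of *Arid1a* itself carried a peak in both lists (fold enrichment 11.4 in WT and 16.2 in cKO), which does not report on the deletion. Promoter peaks were found at 10 of 10 marker genes of pachytene spermatocytes in both lists, beside 49.7% (WT) and 56.7% (cKO) of all protein-coding genes. Of 4 Sertoli cell markers 2 had one in each list, *Amh* and *Gata4* in WT (both 3.19), and *Amh* (13.4) and *Wt1* (3.27) in cKO. Peaks were also found at 1 of 3 Leydig cell markers in each, at 0 (WT) and 1 (cKO) of 2 leukocyte markers, and at 0 of 3 peritubular and endothelial markers. The part of these other cells in the results was not tested.

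Most promoters of oxidative phosphorylation genes were accessible in *Arid1a* WT pachytene spermatocytes. In the WT list 88 of 98 gene models had a promoter peak (89.8%, 95% Wilson interval 82.2 to 94.4), beside 49.7% of all protein-coding genes. In the cKO list 90 of 98 did (91.8%, 84.7 to 95.8), beside 56.7% of all genes. The 2 members *Ndufa9* and *Ndufa4l2* had a promoter peak in the cKO list alone (2 of 98, with 7.31% of all genes in that class), and 0 had one in the WT list alone (0.269% of all genes). The share in the cKO list alone is bounded by the genes without a WT promoter peak. Those were 2 members with a cKO peak and 8 without, beside 1604 and 9436 of all genes. Each of the 88 WT promoter peaks overlapped a cKO peak. The Wilson intervals cover counting error over genes only, and genes are not replicates of a genotype.

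The accessible promoters of the set were of ordinary strength. Median fold enrichment in the WT list was 8.63 over the 88 members (95% interval of the median 7.69 to 9.57) and also 8.63 over all genes with a promoter peak. In the cKO list it was 12.9 over 90 members (11.3 to 16.4) and 12.3 over all genes. The set thus stood apart from all genes by how often a promoter peak was present, and lay at the middle of the range by its height. Related lists of genes had similar shares in WT, from 83.3% of 12 regulators to 97.1% of 35 further assembly factors. Among all promoter peaks the members' fold enrichment had a median percentile of 49.8 in WT and 52.8 in cKO, and single members ranged from 1.82 (*Uqcrb*) to 99.6 (*Uqcrq*) in WT. All 88 WT promoter peaks of members were written on 3 or more rows of the list, each row being an overlap with a peak of another replicate, as were 93.4% of the promoter peaks of all genes. The promoter peak covered the reference start of the gene in 87 of 88 members in WT and 90 of 90 in cKO.

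Members and all genes also differed in the base composition and the layout of their promoters. A RefSeq promoter window of 300 bp (GRCm38.p6) could be matched to 81 members and to 16778 genes in all. Of the matched members 63 (77.8%) had a CpG-rich window, with a GC content of at least 50% and an observed to expected CpG ratio of at least 0.6, beside 46.3% of all matched genes. Among genes with a CpG-rich window, 58 of 63 members (92.1%, 82.7 to 96.6) and 82.2% of all 7768 genes had a promoter peak in WT, a smaller gap than over the whole set. In cKO these shares were 93.7% (84.8 to 97.5) and 88.2%. A divergent promoter, with the start of another protein-coding gene on the opposite strand within 1000 bp upstream, was found for 35 of 98 members (35.7%) and for 11% of all genes. All 35 divergent members had a promoter peak in both lists, beside 88.9% (WT) and 92.1% (cKO) of all divergent genes. The 63 members without a divergent partner had one in 84.1% (73.2 to 91.1) in WT, beside 44.8% of all such genes.

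**Figure D1:**
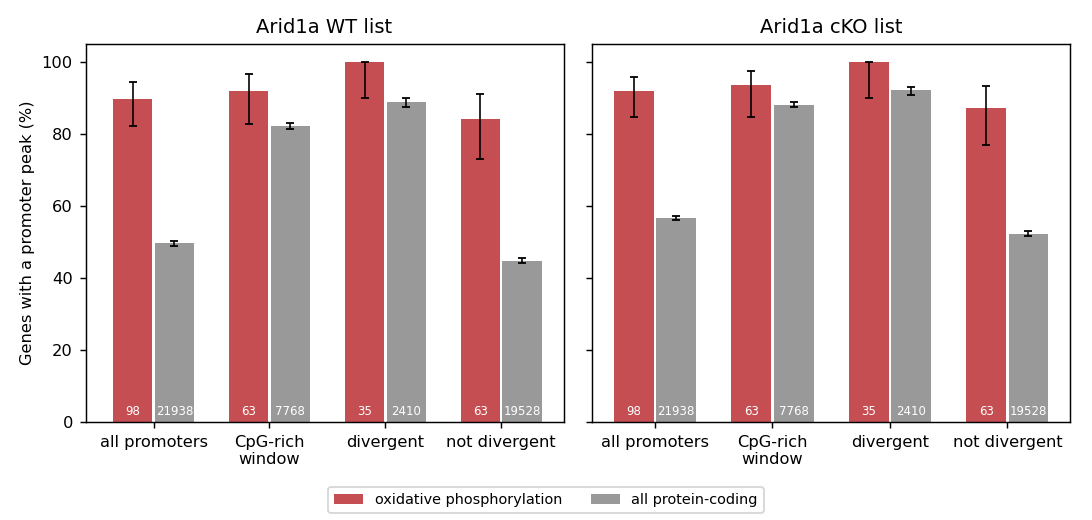
Share of genes with a promoter peak (y axis, percent) in the WT list (left) and the cKO list (right), for oxidative phosphorylation genes (red) and all protein-coding genes (grey); error bars are 95% Wilson intervals and the number in each bar is the number of genes. The red bars lie between 84.1 and 100%, and the grey bars come near them only for CpG-rich windows (82.2 and 88.2%) and divergent promoters (88.9 and 92.1%).

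Complex I, the NADH dehydrogenase, is the largest complex and gave 38 gene models. Of these 35 had a promoter peak in WT and 37 in cKO. The 7 core subunits, which bind the flavin and the iron-sulfur clusters or line the quinone site, all had one in both lists. Their WT fold enrichment ran from 8.44 at *Ndufv1*, the NADH-binding flavoprotein, to 15.4 at *Ndufs8*, with a median of 9.38, and their cKO fold enrichment from 11.9 at *Ndufs1* to 25.7 at *Ndufs8*. The 29 accessory subunits spread more widely, from 3.38 (*Ndufs4*) to 14.6 (*Ndufb5*) in WT, with a median of 8.07. Of them 27 had a promoter peak in WT and 28 in cKO. *Ndufs4*, at the base of the NADH-binding module, also had one of the lowest values in cKO (5.07), and *Ndufb8*, in the membrane arm, had 3.94 in WT and 5.56 in cKO. *Ndufa4*, placed here by its symbol although its protein is found with complex IV, had 5.25 and 9.0. All 8 assembly factors of complex I had one in both lists, from 4.13 at *Ndufaf1* to 22.1 at *Ndufaf8* in WT, and *Ndufaf8* reached 34.4 in cKO.

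Complex II, succinate dehydrogenase, which also works in the citric acid cycle, had a promoter peak at all 4 subunit genes in both lists. The catalytic flavoprotein *Sdha* had a fold enrichment of 6.94 in WT and 9.82 in cKO, the iron-sulfur subunit *Sdhb* 13.1 and 25.2, and the membrane anchors *Sdhc* and *Sdhd* 5.44 and 12.0 in WT and 9.16 and 13.6 in cKO. *Sdhb* therefore had the highest value of its complex in both lists and *Sdhc* the lowest. Of the 4 assembly factors 3 had a promoter peak, and *Sdhaf1* had none.

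Complex III, the cytochrome bc1 complex, had a promoter peak at all 8 genes in both lists and held both the highest and the lowest WT value of the whole set. *Uqcrq* (ENSMUSG00000044894.14, chr11:53427922-53430831), a small subunit, had a fold enrichment of 26.6 in WT and 35.8 in cKO, from summit pileups of 141 fragments (95% Poisson interval 119 to 166) and 218 fragments (190 to 249). *Uqcrb* (ENSMUSG00000021520.4, chr13:66900617-66905378), which helps to form the ubiquinone site, had 3.19 and 7.53, from 16 fragments (9.15 to 26.0) and 45 fragments (32.8 to 60.2). The intervals cover the counting of fragments in 1 library only. The 2 genes were picked as the extremes of the WT list, so the gap between them is a description. The peak at *Uqcrq* also lay in the promoter window of its divergent neighbour *Gdf9*, an oocyte growth factor gene, and that at *Uqcrb* in the window of the divergent *Gm10767*. The WT peak at *Uqcrb* ended 10 bp short of the start, the one WT promoter peak of the set that did not cover it. The structural core proteins *Uqcrc1* and *Uqcrc2* and the Rieske protein *Uqcrfs1* lay between, at 6.57, 9.76 and 10.1 in WT and 9.16, 16.7 and 19.96 in cKO.

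Complex IV, cytochrome c oxidase, was the complex with the most genes that lacked a promoter peak, 4 of 18 in both lists. Its 14 accessible promoters had a median fold enrichment of 7.97 in WT (6.75 to 12.6) and 11.8 in cKO (7.85 to 21.6). Subunit 5, an early partner of the catalytic core, had 8.63 (*Cox5a*) and 10.1 (*Cox5b*) in WT and 17.3 and 21.6 in cKO.

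Complex V, the ATP synthase, had the highest median, 11.4 in WT (6.94 to 14.1) and 18.4 in cKO (10.1 to 23.7), with a promoter peak at 16 of 18 gene models in both lists. The 5 genes of the rotary F1 head all had one, from 9.57 at *Atp5c1* to 19.1 at *Atp5b*, the catalytic subunit, in WT, and from 16.9 to 30.9 at the same genes in cKO. The 4 genes of the peripheral stalk, which holds the head still, had 14.1 (*Atp5f1*), 14.1 (*Atp5h*), 15.8 (*Atp5j*) and 7.32 (*Atp5o*) in WT. Of the 3 genes that encode the same mature c-ring subunit, *Atp5g2* had 11.8 and 21.1, *Atp5g3* had 6.57 and 10.1, and *Atp5g1* had no promoter peak. The intervals of the medians of all complexes with enough genes overlapped within each list, so the order of the complexes is a description.

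**Figure D2:**
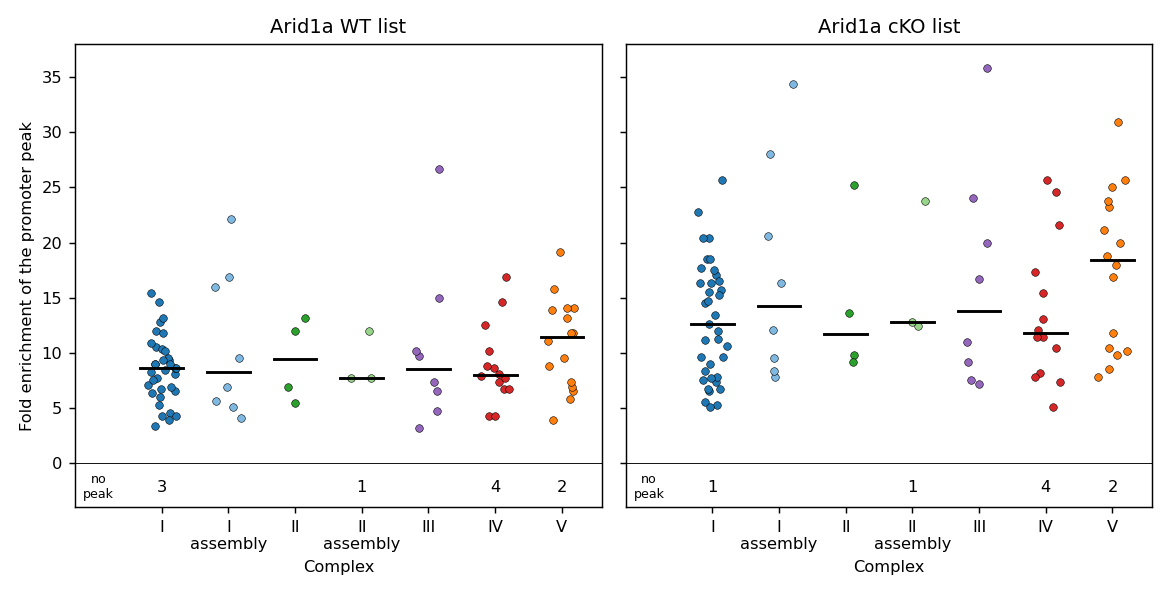
Fold enrichment of the promoter peak (y axis, linear scale) of each gene model by complex (x axis), in the WT list (left) and the cKO list (right). Points are gene models, bars are medians, points are spread sideways only for legibility, and the digits at the bottom give the gene models without a promoter peak, 4 of them in complex IV in both lists.

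Subunits 6b, 7b and 8 of complex IV have testis forms, and their promoters were compared with those of the widely used forms. The testis form *Cox6b2* (ENSMUSG00000051811.14, chr7:4751792-4753094) had a promoter peak with a fold enrichment of 14.6 in WT and 24.5 in cKO. The somatic form *Cox6b1* (ENSMUSG00000036751.7, chr7:30616861-30626151), on the same chromosome, had 7.32 and 8.18. The testis form thus had 2 times the value of the somatic form in WT and 3 times in cKO. The summit pileups were 77 fragments (60.8 to 96.2) against 38 (26.9 to 52.2) in WT and 149 (126 to 175) against 49 (36.3 to 64.8) in cKO, without overlap of the counting intervals in either list.

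The RefSeq promoter windows of both genes, from 250 bp before to 50 bp after the RefSeq start, are shown because here the testis form had the higher peak in both lists, *Cox6b2* at chr7:4753045-4753344 and *Cox6b1* at chr7:30626065-30626364, both on the minus strand of GRCm38.p6. Capitals mark the letters of 2 motifs on either strand, the SP GC box GGGGCGGGG and the CCAAT box CCAAT of NFY. The window of *Cox6b2* held 1 GC box and 3 CCAAT boxes and had an observed to expected CpG ratio of 0.432. The window of *Cox6b1* held 3 CCAAT boxes and no GC box, with a CpG ratio of 0.807. The promoter with the higher peak was thus the one with the lower CpG ratio.
Cox6b2: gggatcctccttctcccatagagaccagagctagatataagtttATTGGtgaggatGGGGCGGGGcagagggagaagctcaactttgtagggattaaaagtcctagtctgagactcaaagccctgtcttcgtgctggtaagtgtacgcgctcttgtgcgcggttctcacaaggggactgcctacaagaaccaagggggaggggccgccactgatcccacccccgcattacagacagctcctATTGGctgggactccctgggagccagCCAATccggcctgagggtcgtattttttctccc
Cox6b1: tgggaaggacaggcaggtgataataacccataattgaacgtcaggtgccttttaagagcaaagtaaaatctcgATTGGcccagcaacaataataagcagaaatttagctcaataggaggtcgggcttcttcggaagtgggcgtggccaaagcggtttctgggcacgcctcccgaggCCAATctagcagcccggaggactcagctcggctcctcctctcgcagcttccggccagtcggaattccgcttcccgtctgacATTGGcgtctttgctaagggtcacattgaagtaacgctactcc

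Subunit 7b differed in presence. The testis form *Cox7b2* (ENSMUSG00000049387.10, chr5:71442824-71548205) had a promoter peak of 6.75 in WT and 12.1 in cKO, with summit pileups of 35 (24.4 to 48.7) and 73 (57.2 to 91.8) fragments, and was narrow, 506 bp in WT and 686 bp in cKO. The widely used form *Cox7b* (ENSMUSG00000031231.4, chrX:106015700-106022450) is X-linked and had none in either list. The nearest peak to a *Cox7b* start lay 3638 bp away in WT and 3537 bp away in cKO. Both windows follow since one promoter had a called peak and the other had none, *Cox7b2* at chr5:71548156-71548455 on the minus strand and *Cox7b* at chrX:106015450-106015749 on the plus strand of GRCm38.p6, with the CCAAT box in capitals. *Cox7b2* held 3 CCAAT boxes upstream of the start, close to each other, and *Cox7b* held 2. The GC content was 48.7% and 43.3%, and the CpG ratio was 0.564 and 0.368, respectively.
Cox7b2: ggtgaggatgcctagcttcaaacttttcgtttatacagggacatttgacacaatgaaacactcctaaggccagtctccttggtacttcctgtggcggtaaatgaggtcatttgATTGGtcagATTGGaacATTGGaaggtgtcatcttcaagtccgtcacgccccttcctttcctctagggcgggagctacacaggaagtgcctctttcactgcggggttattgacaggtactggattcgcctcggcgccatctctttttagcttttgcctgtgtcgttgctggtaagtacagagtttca
Cox7b: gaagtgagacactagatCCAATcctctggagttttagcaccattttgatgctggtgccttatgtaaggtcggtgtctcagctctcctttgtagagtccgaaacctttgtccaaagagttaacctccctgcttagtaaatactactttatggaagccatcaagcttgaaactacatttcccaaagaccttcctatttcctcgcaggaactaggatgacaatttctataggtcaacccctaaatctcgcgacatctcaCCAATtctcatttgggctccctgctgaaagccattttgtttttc

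Subunit 8 showed the opposite order of peak heights. The testis form *Cox8c* (ENSMUSG00000043319.5, chr12:102899316-102900526) had 4.31 in WT and 7.36 in cKO, and the liver form *Cox8a* (ENSMUSG00000035885.5, chr19:7215153-7217616) had 12.6 and 15.4. *Cox8c* therefore had 0.343 of the *Cox8a* value in WT and 0.479 in cKO, and the counting intervals of the pileups, 22 (13.8 to 33.3) against 66 (51.0 to 84.0) fragments in WT and 44 (31.97 to 59.1) against 93 (75.1 to 114) in cKO, did not overlap. The peak at *Cox8c* was 950 bp wide in WT and 4759 bp wide in cKO, where it spanned 2 WT peaks. The 3 testis forms thus did not share a common rank against their somatic counterparts.

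Isoforms of muscle, heart and lung were mostly without a promoter peak. *Cox4i2*, the lung form of subunit 4, *Cox6a2*, the heart and muscle form of subunit 6a, and *Cox8b*, the heart and muscle form of subunit 8, had none in either list, with the nearest WT peak 11122, 2643 and 17803 bp from a start. Their counterparts *Cox4i1* (16.9 in WT, 25.7 in cKO), *Cox6a1* (7.88 and 11.5) and *Cox8a* all had one. *Cox7a1*, the heart and muscle form of subunit 7a, was the exception, with 4.31 and 5.07, about the lowest values of complex IV, beside 8.82 and 11.5 at *Cox7a2*.

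**Figure D3:**
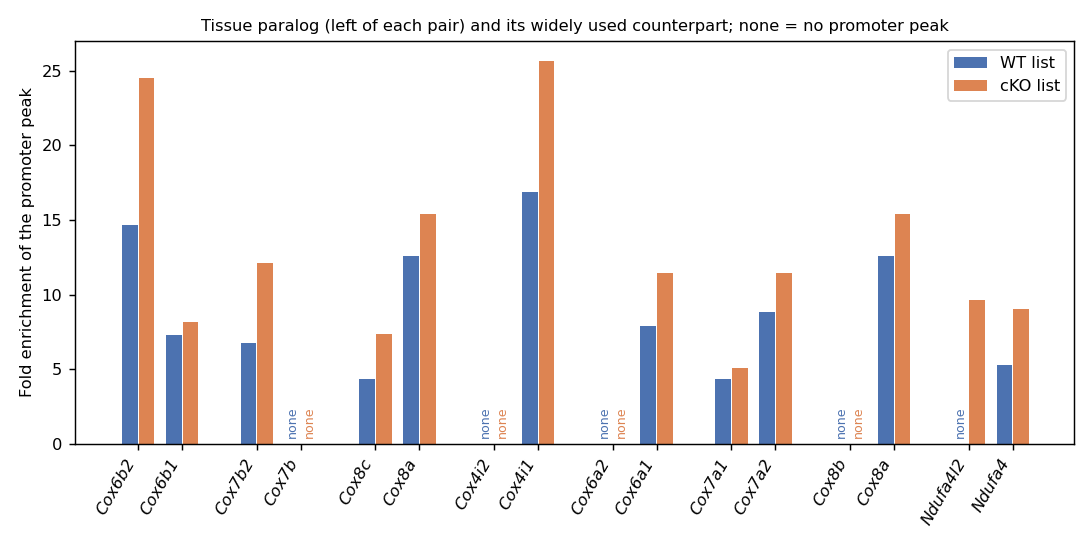
Fold enrichment of the promoter peak (y axis, linear scale from 0) of 8 tissue paralogs, each beside its widely used counterpart, in the WT list (blue) and the cKO list (orange); "none" marks a gene without a promoter peak. *Cox6b2* stands above *Cox6b1*, *Cox7b2* has a peak where *Cox7b* has none, and *Cox8c* stands below *Cox8a*.

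A total of 8 gene models had no promoter peak in either list. Besides *Cox7b*, *Cox4i2*, *Cox6a2* and *Cox8b* these were *Ndufa6*, *Sdhaf1*, *Atp5g1* and the read-through model of *Atp5o*, whose sister model ENSMUSG00000022956.11 had a peak (7.32 in WT, 7.85 in cKO). *Ndufa6*, an accessory subunit of complex I (ENSMUSG00000022450.6, chr15:82350140-82354322), had its nearest peak 25347 bp away in WT and 25204 bp away in cKO. *Atp5g1* (ENSMUSG00000006057.15, chr11:96068852-96075670) had its nearest at 40023 and 29705 bp. At *Sdhaf1* (ENSMUSG00000074211.4, chr7:30321406-30323895) the absence depended on the annotation. The GENCODE start lay 1145 bp (WT) and 691 bp (cKO) from a peak within the gene, with fold enrichments of 12.9 and 20.3, and this peak (chr7:30321672-30322750 in WT) covered the RefSeq start of the gene.

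*Ndufa6* had a promoter window of the kind that was accessible elsewhere in the set. Its window (chr15:82354242-82354541, minus strand, GRCm38.p6) had a GC content of 65.0% and a CpG ratio of 0.855, and held 1 NRF1 core (GCATGCGC), 1 GC box and 1 CCAAT box, in capitals. The window of *Sdhb* (chr4:140961021-140961320, plus strand) held the same 3 motifs, with a GC content of 60% and a CpG ratio of 0.571, and carried a peak with a fold enrichment of 13.1 in WT. The pair is shown since these letters were present both with and without a promoter peak.
Ndufa6: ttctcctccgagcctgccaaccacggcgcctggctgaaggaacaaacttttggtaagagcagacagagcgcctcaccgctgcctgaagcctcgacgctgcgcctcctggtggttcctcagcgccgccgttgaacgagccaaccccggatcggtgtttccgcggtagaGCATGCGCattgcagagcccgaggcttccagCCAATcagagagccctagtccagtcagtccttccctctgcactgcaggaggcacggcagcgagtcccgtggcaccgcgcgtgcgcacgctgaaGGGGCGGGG
Sdhb: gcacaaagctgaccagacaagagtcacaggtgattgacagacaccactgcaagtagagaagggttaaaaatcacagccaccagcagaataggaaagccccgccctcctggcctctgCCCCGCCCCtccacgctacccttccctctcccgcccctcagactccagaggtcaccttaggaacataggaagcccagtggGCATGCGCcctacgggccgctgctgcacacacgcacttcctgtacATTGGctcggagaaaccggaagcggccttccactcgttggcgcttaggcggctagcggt

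Both members with a promoter peak in the cKO list alone belonged to complex I by their symbols. *Ndufa9* (ENSMUSG00000000399.10, chr6:126821721-126849136), an accessory subunit at the junction of the arms of the complex, had its nearest WT peak 89799 bp from a start. In cKO it had a peak of 782 bp (chr6:126848862-126849643) with a fold enrichment of 5.24, from 31 fragments at the summit (21.1 to 44.0), at percentile 15.8 of all cKO promoter peaks. *Ndufa4l2* (ENSMUSG00000040280.10, chr10:127514967-127517154), a paralog of *Ndufa4* known for its induction by hypoxia, had a WT peak that began 195 bp inside the gene (chr10:127515162-127517307, fold enrichment 6.003). In cKO that region was part of a peak of 4488 bp that ran from 1218 bp upstream to 3269 bp downstream of the start, with a fold enrichment of 9.65. *Ndufa9* was therefore the one member with a cKO promoter peak and no WT peak under it, and *Ndufa4l2* differed by the extent of a peak present in both lists. The window of *Ndufa9* (chr6:126849095-126849394, minus strand, GRCm38.p6) held 1 YY1 core (AAGATGGC, in capitals) just after the start, with a GC content of 53.3% and a CpG ratio of 0.722.
Ndufa9: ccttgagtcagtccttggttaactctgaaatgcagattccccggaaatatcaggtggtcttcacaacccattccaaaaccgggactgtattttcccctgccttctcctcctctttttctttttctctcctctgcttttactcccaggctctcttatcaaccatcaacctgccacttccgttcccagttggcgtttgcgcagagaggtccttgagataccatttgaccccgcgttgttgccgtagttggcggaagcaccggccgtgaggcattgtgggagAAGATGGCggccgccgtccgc

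Fold enrichment was higher in the cKO list at 87 of the 88 members with a promoter peak in both lists, beside 97.9% of the 10839 such genes in all. The median log2 ratio of cKO to WT fold enrichment was 0.69 over members (0.61 to 0.73) and 0.65 over all genes (0.64 to 0.65), and 47 of 88 members lay above the median of all genes. Each list takes its heights from 1 library, so a difference between genotypes and one between these libraries cannot be told apart. By complex the median log2 ratio ran from 0.62 in complex IV to 0.72 in complex V, and for the assembly factors of complex I it was 0.74. The values of members in the 2 lists were correlated (Pearson's r 0.924 and Spearman's rho 0.931 of log2 fold enrichment over 88 gene models, 0.934 and 0.941 over all genes). These points share the 2 libraries and are given as a description.

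Single members spread around this common shift, and whether any departed from it beyond counting error was not tested. The highest log2 ratios were 1.24 at *Uqcrb*, 1.20 at *Ndufa10*, an accessory subunit of complex I, and 1.11 at *Atp5k*, a small subunit of the membrane part of complex V (3.94 in WT, 8.51 in cKO). *Ndufa10* had a summit of 42 fragments (30.3 to 56.8) in WT and 112 (92.2 to 135) in cKO. The lowest ratios were -0.17 at *Ndufs6*, 0.03 at *Cox6c* and 0.10 at *Atp5o*. *Ndufs6* (ENSMUSG00000021606.8, chr13:73319838-73328542), a zinc-binding accessory subunit of complex I, was the one member with a lower cKO value, 8.63 in WT and 7.69 in cKO. Its summit pileups were 45 (32.8 to 60.2) and 46 (33.7 to 61.4) fragments, over backgrounds of 4.33 and 5.11 fragments per base. The peak was wider in cKO, 1422 bp against 860 bp in WT. In *Cox6c*, a small subunit of complex IV (7.69 and 7.85), the pileups were 40 (28.6 to 54.5) and 47 (34.5 to 62.5) fragments.

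**Figure D4:**
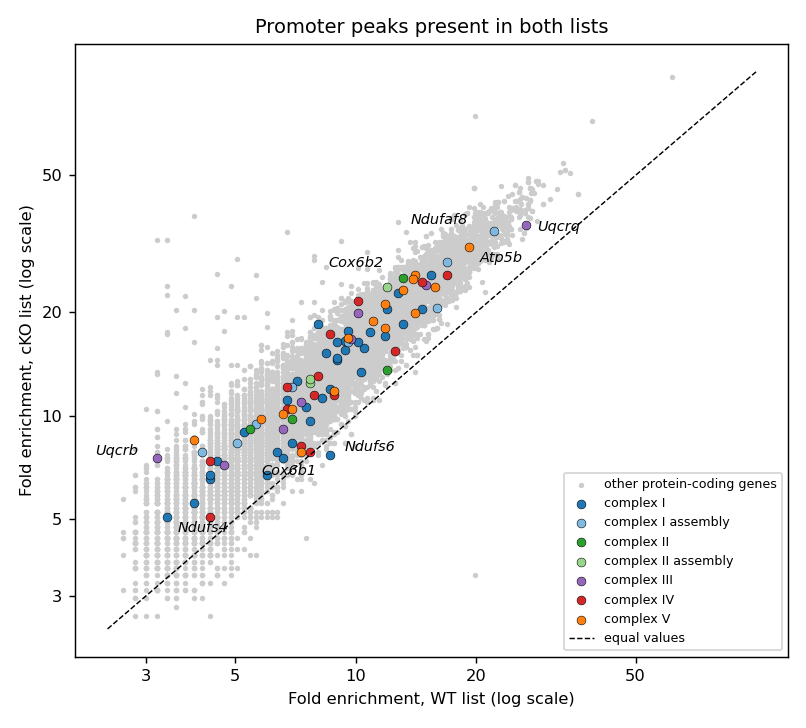
Fold enrichment of the promoter peak in the WT list (x axis) against the cKO list (y axis), both on log scales, for genes with a promoter peak in both lists; coloured points are oxidative phosphorylation genes by complex, grey points are other protein-coding genes and the dashed line marks equal values. The coloured points lie within the grey cloud, above the line in 87 of 88 cases, with *Ndufs6* below it.

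Promoter peaks were wider in the cKO list at 82 of 88 members, beside 95.3% of all genes. Median width was 933.5 bp in WT (847 to 1062) and 1371 bp in cKO (1284 to 1545), against 1068 bp and 1469 bp over all genes. The median difference of a member was 429 bp, beside 460 bp for all genes. The medians by side were 198 bp upstream and 160 bp downstream, beside 212 bp and 204 bp for all genes. The 6 members with a narrower cKO peak were *Ndufa12*, *Ndufa3*, *Ndufb3*, *Ndufb6*, *Ndufs4* and *Uqcr10*, beside 501 of the 10839 such genes in all. Complex I gave 5 of the 6, and 35 of the 88 members. The change was smallest at *Ndufb3* (1099 bp in WT, 1073 bp in cKO) and largest at *Ndufa12* (933 and 749 bp).

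The 3 widest promoter peaks of the set in WT also lay in the promoter windows of other genes. At *Ndufaf3*, an assembly factor of complex I (ENSMUSG00000070283.4, chr9:108565537-108567434), the peak was 11832 bp in WT and 15378 bp in cKO, and it also took in the promoters of *Dalrd3* and *Impdh2*. At *Ndufa13* it was 3535 and 3977 bp, with the promoters of *Tssk6*, a testis-specific kinase gene, and *Yjefn3*. At *Ndufaf8* it was 3018 and 4313 bp, with the divergent *Tepsin*. In cKO the widest after *Ndufaf3* were those of *Cox8c* (4759 bp) and *Ndufa4l2* (4488 bp), which lay in no other gene's promoter window. Only 2 members, *Ndufaf3* and *Cox8c*, had a cKO promoter peak that spanned more than 1 WT peak (2.27%, beside 5.54% of all genes).

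**Figure D5:**
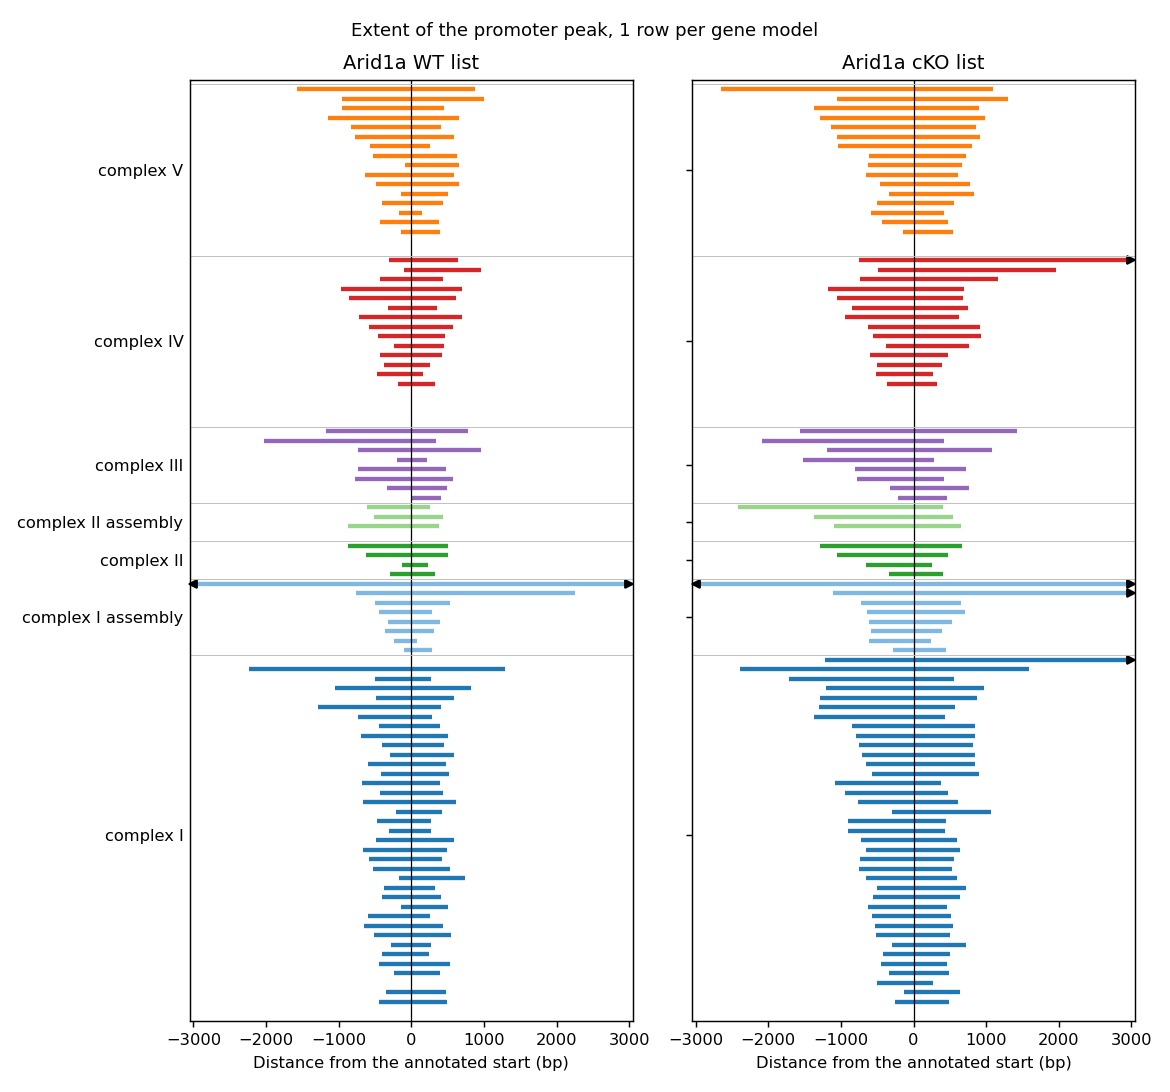
Extent of the promoter peak around the annotated start (x axis, bp, negative upstream) for each gene model (1 row each, grouped by complex and sorted by cKO width) in the WT list (left) and the cKO list (right); empty rows have no promoter peak and arrowheads mark peaks that run past 3000 bp. Most bars span both sides of the start, and the median bar is 933.5 bp long in WT and 1371 bp in cKO.

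The peaks of 38 of the 88 members in WT (43.2%) also lay in the promoter window of another protein-coding gene, beside 23.7% of all genes with a promoter peak, so their height cannot be given to the member alone. By complex this held for 17 of 35 peaks in complex I, 3 of 4 in complex II, 4 of 8 in complex III and 7 of 16 in complex V, and for 1 of 14 in complex IV. The partners included genes of translation and of mitochondria. *Ndufa7* faced *Rps28*, a ribosomal protein gene, *Ndufs1* faced *Eef1b2*, an elongation factor gene, and *Ndufs6* faced *Mrpl36*, a mitochondrial ribosomal protein gene. *Sdhd* faced *Timm8b*, which takes part in import into mitochondria. *Atp5j* faced *Gabpa*, which encodes an ETS factor known as a regulator of this pathway (15.8 in WT and 23.7 in cKO for the shared peak).

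The promoter windows of members held some motifs at other rates than windows at large. Factors known to act on these genes are NRF1, GABPA, YY1 and SP factors, with the estrogen-related receptors. Over 85 windows of members and 21262 in all, searched on both strands, the NRF1 core GCATGCGC was present in 14.1% of member windows and 3.51% of all, and the YY1 core AAGATGGC in 12.9% and 3.05%. Among CpG-rich windows only, the NRF1 core was in 14.9% of 67 and 6.44% of 9599, and the YY1 core in 11.9% and 4.88%. The estrogen-related receptor site TCAAGGTCA was in only 2 member windows (2.35%, beside 0.334%), those of *Sdhd* and *Atp5g3*. The ETS site CCGGAAGT bound by GABPA was in 5.88% and 5.15%, the GC box GGGGCGGGG in 15.3% and 15.4%, the CCAAT box in 42.4% and 38.2%, the cAMP response element TGACGTCA in 4.71% and 2.23%, and TAACGG, a site of MYB factors such as the pachytene regulator MYBL1, in 7.06% and 2.96%. In CpG-rich windows the GC box was in 14.9% of member windows and 27.5% of all, and the ETS site in 5.97% and 9.07%. There the CCAAT box was in 34.3% and 36.1%, the cAMP response element in 4.48% and 3.74%, and TAACGG in 7.46% and 4.13%. Over all 85 member windows the last 2 motifs were in only 4 and 6. A match is a stretch of letters, not a bound site, and windows of 1 gene can overlap.

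Of the 81 matched members 74 had a WT promoter peak, so the shares with and without these cores had little room to differ. Of the 12 members with an NRF1 core 11 had a WT promoter peak (91.7%), as did 63 of 69 without it (91.3%). Over all matched genes these shares were 87.9% with and 50.4% without the NRF1 core. For the YY1 core they were 90.9% and 91.4% among members, and 80.0% and 50.9% over all genes. The shares over all genes were not limited to CpG-rich windows, where both cores were commoner, so they do not show that members differ in this respect. Median WT fold enrichment was 6.94 with and 8.82 without the NRF1 core, and 12.6 with and 7.97 without the GC box (13 and 68 matched members). For the YY1 core it was 7.79 with and 8.54 without. These medians are descriptions.

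The X-linked members with a promoter peak lay low in both lists, and the X-linked *Cox7b* had none. X and Y are normally silenced during pachynema, and the paper reports that this silencing was defective without ARID1A. Of 948 X-linked protein-coding genes 26.6% were scored with a promoter peak in WT and 47.2% in cKO. *Ndufa1* (chrX:37187588-37191163), an accessory subunit of complex I, had 4.31 in WT and 6.55 in cKO, and *Ndufb11* (chrX:20615326-20617619), another, had 4.50 and 7.36. Their WT values were at percentiles 10.9 and 12.7 of all promoter peaks, and the median of X-linked genes was 5.07 in WT and 5.73 in cKO. The log2 ratios, 0.60 and 0.71, were beside medians of 0.70 for X-linked and 0.65 for autosomal genes. Both peaks were shared with a divergent gene, *Rnf113a1* and *Rbm10*. Without the 3 X-linked genes, 86 of 95 members (90.5%) had a promoter peak in WT, beside 51.1% of autosomal genes.

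Related genes of the pathway were scored in the same way. Of 35 further assembly factors of the complexes 34 had a promoter peak in both lists, all but *Cmc1*, with a median fold enrichment of 10.1 in WT and 16.4 in cKO. *Cox20*, which stabilises a subunit of complex IV, had 22.3 and 39.1 with a peak of 4993 and 7056 bp, and *Cox17*, a copper chaperone, had 6.19 and 5.24. Of 9 genes for cytochrome c and carriers, 8 had a promoter peak in WT and 9 in cKO. The somatic cytochrome c gene *Cycs* had 13.3 and 24.1 and the testis form *Cyct* 4.69 and 8.18. Of the ADP/ATP carriers, the testis form *Slc25a31* had 9.57 and 14.2, the X-linked *Slc25a5* had 4.50 and 10.96, and the heart and muscle form *Slc25a4* had a peak only in cKO (3.93). Its nearest WT peak lay 46929 bp from a start.

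The citric acid cycle and pyruvate dehydrogenase, which feed complexes I and II, had a promoter peak at 16 of 18 genes in WT and 18 in cKO. The 2 genes with a peak in cKO alone were the X-linked E1 subunit gene *Pdha1* (2.95, nearest WT peak 363462 bp from a start) and its autosomal testis form *Pdha2* (10.1, nearest WT peak 235 bp from a start). Of 12 regulators of nuclear genes of mitochondria 10 had a promoter peak in both lists, among them *Nrf1* (7.69 and 10.3), *Gabpa*, *Yy1* (18.4 and 32.6) and *Tfam*, the packaging factor of mitochondrial DNA (8.44 and 17.8). The coactivator genes *Ppargc1a* and *Ppargc1b* had none, with the nearest peak 548135 and 135992 bp from a start in WT.

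Other peaks overlapped a member without being scored as its promoter peak. The WT list had 14 such peaks in 8 gene models and the cKO list 26 in 9, and the share over all genes was not computed. Of these, 7 in WT and 11 in cKO fell in the read-through model of *Atp5o*, and 1 and 5 in *Sdhaf3*, an assembly factor of complex II. Some ran past the end of the gene, as at *Atp5b* in cKO (chr10:128090008-128097878, gene end at 128090391). The peak at *Sdhaf1* covered the RefSeq start of the gene. *Ndufaf2*, an assembly factor of complex I, had an internal peak in both lists (chr13:108044093-108044824 in WT), with a fold enrichment of 10.3 in WT and 13.1 in cKO, beside 15.9 and 20.6 at its promoter.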

How the data were processed

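Omni-ATAC libraries were trimmed with Trim Galore, aligned to mm10 with bowtie2, and filtered with Picard and SAMtools (per the labels and the paper's methods). The authors called peaks per library with MACS2, without a local background, and intersected replicates with bedtools. The 2 deposited lists give a fold enrichment (a linear ratio) and a −log10 q per peak, and rows that repeated a peak name were merged into 1 peak. Which library supplied the peaks is not stated.

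Starts came from all transcripts of protein-coding genes in GENCODE vM21 (GRCm38). Where a gene had several promoter peaks the highest was used. Distances to a start used the start nearest to the centre of the WT peak. Summit pileups were recovered from the grid of the deposited ratio. Shares have 95% Wilson intervals, medians order-statistic intervals and pileups exact Poisson intervals. There was no test. Named genes were the tissue paralogs, X-linked genes, genes whose presence differed or that lacked a promoter peak, and the 3 highest, lowest and widest; further members were named after their values were seen, to illustrate each complex. The members, gene lists, roles and motifs were chosen with earlier results of these data known. Scoring was tested on simulated peaks. Alternatives are given in the closing section. Software was Python 3.11.15, pandas 2.3.3, numpy 2.4.6, scipy 1.17.1 and matplotlib 3.10.9.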

Additional observations from a re-analysis of the deposited data

How the results depend on the processing

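No paired analysis was possible because each genotype had 1 peak list, and for the same reason no replicate could be left out. Of 123 values recomputed under alternatives, 116 moved by less than the counting interval or by less than 1.5 times. The count of members with a promoter peak in the cKO list alone, 2 as reported, was 7 when the centre of the peak had to lie in the window, 4 with a −log10 q of at least 5 and 13 with at least 10, where 11 WT peaks of members fell under the limit. The count in the WT list alone, 0 as reported, was 5 by the centre and 1 with a window of 3000 bp on either side. The shares of all genes in 1 list alone are given for the reported rule only, so these counts have no share beside them. With a −log10 q of at least 10, 78.6% (WT) and 91.8% (cKO) of members had a promoter peak, beside 41.1% and 49.6% of all genes. With CpG-rich windows only, an alternative chosen after seeing the data, 58 of 63 members in WT and 59 in cKO had a promoter peak. By the centre of the peak 77.6% of members and 39.4% of all genes had one in WT. The lists hold no values below the peak threshold, so a gene without a promoter peak is not shown to be closed, and single libraries were not analysed here.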
